A study of Mus musculus with 144 samples.

Results

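The genes described here are 36 protein-coding genes of the mitochondrial protein import machinery, its abundant inner-membrane carriers and the outer-membrane porins, out of 21846 protein-coding genes and 55364 genes measured. They were chosen by a rule on names, which was set with earlier results of these data known. The rule took every protein-coding symbol that starts with Tomm or Timm and a digit, and Slc25a3, Slc25a4, Slc25a5, Vdac1, Vdac2, Vdac3, Phb, Phb2, Htra2, Pam16 and Dnajc19. RNA was measured in 144 wells sorted to hold a single retinal microglial cell each, from Iba1-EGFP mice on a C57BL/6 background aged 20 to 22 months, in which cells that express the microglia and macrophage gene Iba1 carry a green fluorescent protein. By title, 54 wells were uncrushed (day 0, no treatment), 36 came from day 2 and 54 from day 4 after optic nerve crush, an injury of the axons of retinal ganglion cells that reach the brain through that nerve. The 18 day 4 wells of plate 1 bear day 2 in another label, the treatment, and the title was followed. The labels name no animal, so each group counts as 1 sample. Differences are therefore given as sizes without a test, and intervals cover counting error only. The wells fill 3 plates, and each group has its own rows on every plate, so group and row cannot be told apart.

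Most mitochondrial proteins are made in the cytosol and enter the organelle through a relay of membrane machines. The translocase of the outer membrane (Tomm genes) receives them, small chaperones of the space between the membranes guide hydrophobic proteins onward, and the translocases of the inner membrane (Timm genes) either insert carriers or pass proteins to a motor in the matrix. The carriers Slc25a4 and Slc25a5 exchange ADP for ATP across the inner membrane and Slc25a3 brings in phosphate, while the porins (Vdac genes) let metabolites cross the outer membrane. Prohibitins form ring scaffolds in the inner membrane, and Htra2 is a protease of the space between the membranes. Microglia are the resident macrophages of the retina and change shape, gene expression and metabolism after nerve injury.

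Depth separates the wells. Reads recovered from the deposited values placed 88 wells at 60079 to 8065036 reads and 56 at 643 to 14205, and only the first, called deep wells, are used unless stated: 39 uncrushed, 25 at day 2 and 24 at day 4. Only 2 of the day 4 deep wells lie on plate 3, and these held 108 and 390 genes, so every day 4 value within that plate rests on 2 poor wells. A gene is called found in a well at 10 or more recovered reads. Genes found per deep well had a median of 1035, 1495 and 2174 in uncrushed, day 2 and day 4 wells. At least 3 of 11 microglia markers were present in 37 uncrushed, 21 day 2 and 22 day 4 wells. At least 3 of 10 neutrophil markers were found in 1, 6 and 2 wells, and their sum ran from 0 to 99789, 91053 and 68670 RPM (reads scaled to a total of 1000000 per well) in the 3 groups, with 3 of the 10 at 0 in each group. At least 3 of 13 rod photoreceptor markers were found in 4, 1 and 1 wells, and their sum ran from 0 to 5724, 73429 and 100726 RPM. At least 3 of 6 Muller glia markers were found in 2, 1 and 1 wells, with sums of up to 43486, 3681 and 5182 RPM. No well held more than 1 of 6 monocyte markers, with sums of up to 2097, 110 and 42680 RPM, none held 3 markers of T cells, B cells, retinal ganglion cells or endothelium, and all 5 erythroid markers were at 0. Results without the wells that held at least 3 neutrophil or 3 rod markers rest on 75 wells, and the part of Muller glia and monocyte transcripts in the results was not tested.

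A deep well held a median of 3 of the 36 genes in uncrushed retina (range 0 to 19), 6 at day 2 (0 to 21) and 10 at day 4 (0 to 28), with none in 3, 4 and 1 wells. Compared with uncrushed retina, 35 of 36 genes were found in a larger share of wells at day 4, and Timm8a2 was at 0 in every deep well. At day 2, 29 genes were found in a larger share and 5 in a smaller one. The whole table ran the same way: of the 5785 genes found in at least 10% of deep wells, 94.7% had a larger share at day 4 and 81.6% at day 2, against 28 and 25 of the 28 among the 36 that reach 10%. These counts are therefore close to the background and say nothing particular about the 36 genes. The genes found in the largest shares of all deep wells were Slc25a5, Tomm7 and Tomm6, in 54, 40 and 37 of 88 wells.

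**Figure D1:**
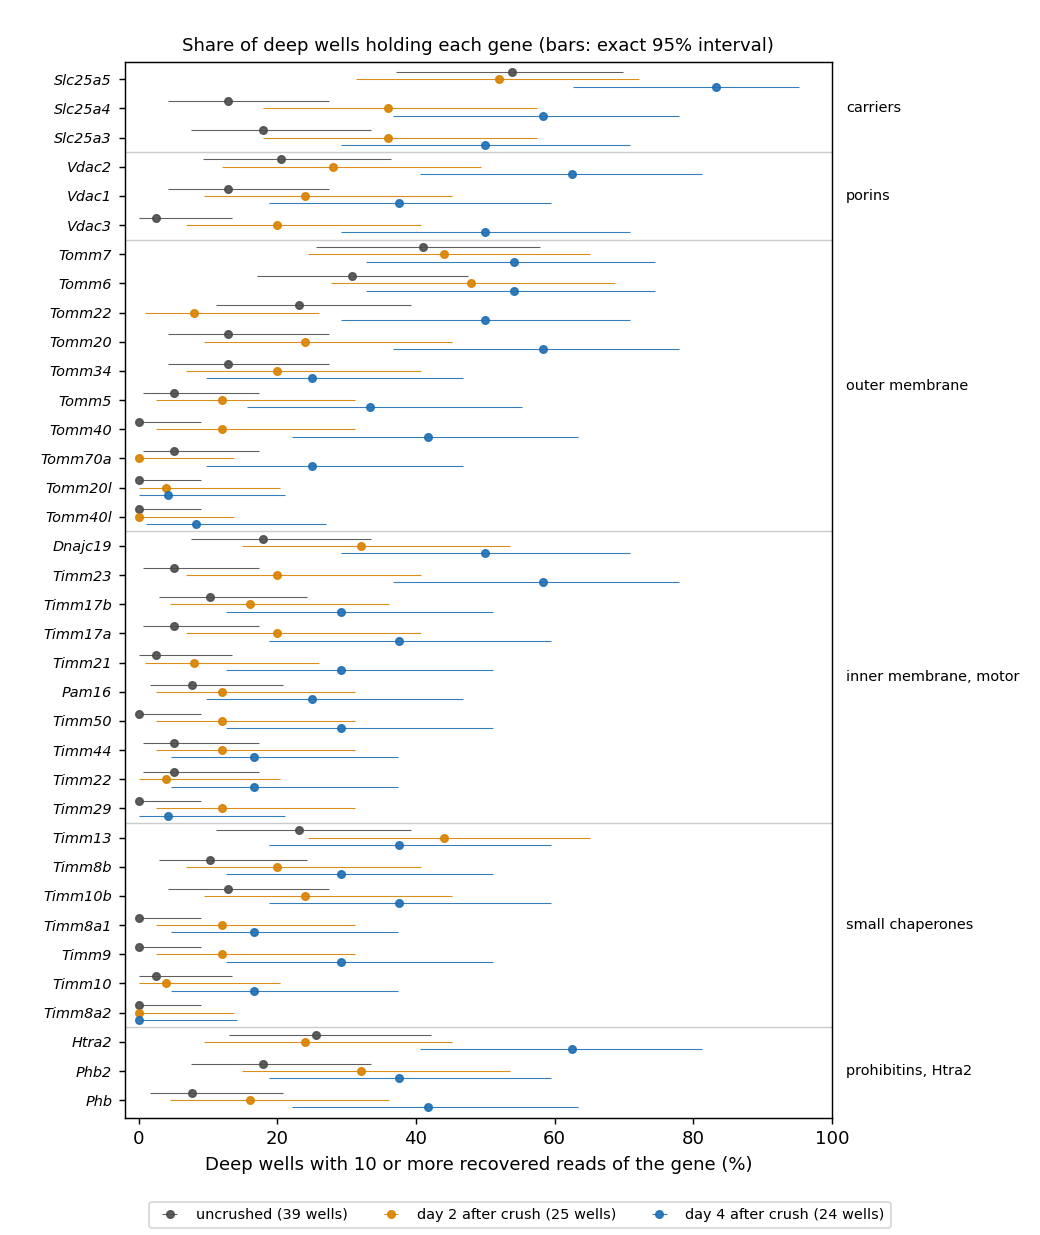
Share of deep wells (x axis, percent) in which each of the 36 genes (y axis, by role) had 10 or more recovered reads, in 39 uncrushed, 25 day 2 and 24 day 4 wells, with exact Clopper-Pearson 95% intervals. Day 4 lies furthest right for most genes, with Slc25a5 at 83.3%, while Tomm22 is at its lowest at day 2, at 8%.

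The level was compared as the mean of log2(FPKM + 1) over deep wells, where FPKM scales the reads of a gene by its length and by the total of the well. A difference of at least 1 or at most -1 between group means is called past the 2-fold mark. This was done for the 5785 genes found in at least 10% of deep wells, among them 28 of the 36. Of these 28, 8 reach 10% only through the day 4 wells (Tomm5, Tomm40, Timm50, Timm44, Vdac3, Timm9, Pam16 and Timm21), so the filter itself favoured a positive day 4 difference for them, and counts over the 28 are a description only. At day 2, 5 of the 28 stood past the mark above uncrushed retina, which is 17.9%, and over all genes tested 21.4% did. These were Slc25a4 at 1.54, Timm13 at 1.28, Timm23 at 1.23, Phb2 at 1.16 and Vdac3 at 1.07. Tomm22 alone was past the mark below, and 1.66% of all genes were. At day 4, 20 of 28 (71.4%) were past the mark above uncrushed retina and none below, against 43.7% and 1.05% of all genes. From day 2 to day 4, 13 of 28 (46.4%) were past the mark above and none below, against 22.8% and 2.23%.

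By role, the genes past the mark above uncrushed retina at day 4 were all 3 carriers (median difference 2.37) and all 3 porins (1.68), 5 of 7 outer membrane translocase genes (1.54), 5 of 8 inner membrane and motor genes (1.30), 2 of 4 small chaperones (0.94) and 2 of the 3 prohibitin and Htra2 genes (1.59). The medians of the 28 genes were 0.57 at day 2 and 1.56 at day 4 against uncrushed retina, and 0.96 at day 4 against day 2. All genes tested had medians of 0.41, 0.86 and 0.43, so most of the median at day 2, and also at day 4 against uncrushed retina, is shared with the whole table. After this shift was subtracted, 1 gene was past the mark above and 3 below at day 2, 9 above and none below at day 4, and 8 above and 1 below between the days, and the day 4 differences of Tomm7, Timm13, Timm8b, Tomm34, Pam16 and Timm44 turned negative, from -0.06 for Timm8b to -0.51 for Pam16. When the mean FPKM of the wells was compared in place of the mean of logs, these splits were 8 above and 5 below, 11 and 3, and 12 and 3. Within plates 1, 2 and 3 the median of the 28 was 0.77, -0.05 and 0.63 at day 2, and 1.34, 2.09 and -0.86 at day 4, against 0.87, 1.30 and -0.75 over all genes at day 4. Between the days it was 0.81, 2.08 and -1.51. Without the 2 day 4 wells of plate 3, the day 4 median was 1.71 with 22 genes past the mark above. Leaving out the wells with neutrophil or rod markers, 11 genes were past the mark above at day 2 and 20 at day 4. The share over all genes was not recomputed for the subtracted shift, the mean FPKM or these smaller sets of wells. Those counts therefore have no background beside them.

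**Figure D2:**
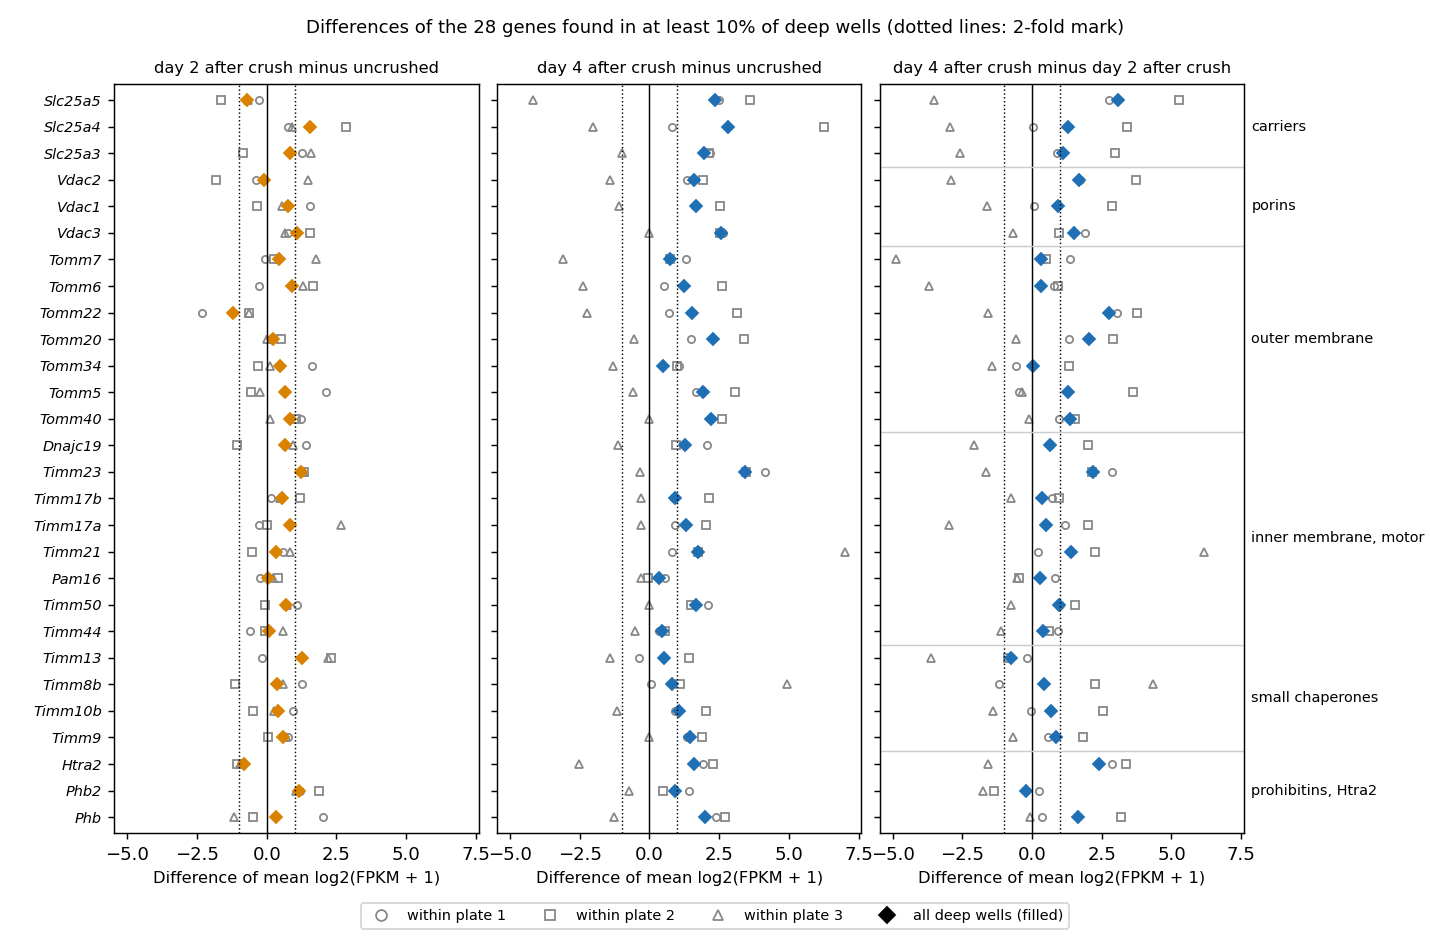
Differences of mean log2(FPKM + 1) (x axes) for the 28 genes found in at least 10% of deep wells (y axis, by role) in the 3 comparisons, with filled diamonds for all deep wells and open symbols for values within each plate. At day 4 against uncrushed retina before the median of all genes is subtracted all 28 diamonds lie above 0, from 0.35 for Pam16 to 3.42 for Timm23, and most of the plate 3 triangles lie below 0.

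The stretch around the gene start is shown for 4 of the genes because their levels ran differently: Slc25a4 and Timm23 were past the mark above uncrushed retina at both days, Slc25a5 only at day 4, and Tomm22 was past the mark below it at day 2 and above it at day 4. Each runs 5′ to 3′ along the gene from 250 bases before the RefSeq start to 50 after it (GRCm38.p6, the build of the deposited table), and capitals mark matches of the motifs named next. The positions are chr8:46211013-46211312 on the minus strand for Slc25a4, chrX:36795347-36795646 on the plus strand for Slc25a5, chr14:32201842-32202141 on the minus strand for Timm23 and chr15:79670618-79670917 on the plus strand for Tomm22.
Slc25a4: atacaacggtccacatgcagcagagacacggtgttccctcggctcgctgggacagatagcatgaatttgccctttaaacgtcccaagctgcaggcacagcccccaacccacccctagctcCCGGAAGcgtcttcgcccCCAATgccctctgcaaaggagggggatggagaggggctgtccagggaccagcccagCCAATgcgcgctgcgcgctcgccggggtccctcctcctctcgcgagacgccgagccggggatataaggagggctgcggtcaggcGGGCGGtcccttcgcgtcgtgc
Slc25a5: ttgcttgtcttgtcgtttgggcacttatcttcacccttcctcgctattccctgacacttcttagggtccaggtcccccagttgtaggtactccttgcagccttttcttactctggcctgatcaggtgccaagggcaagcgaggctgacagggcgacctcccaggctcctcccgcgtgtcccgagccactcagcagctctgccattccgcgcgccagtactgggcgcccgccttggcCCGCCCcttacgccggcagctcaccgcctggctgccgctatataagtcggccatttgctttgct
Timm23: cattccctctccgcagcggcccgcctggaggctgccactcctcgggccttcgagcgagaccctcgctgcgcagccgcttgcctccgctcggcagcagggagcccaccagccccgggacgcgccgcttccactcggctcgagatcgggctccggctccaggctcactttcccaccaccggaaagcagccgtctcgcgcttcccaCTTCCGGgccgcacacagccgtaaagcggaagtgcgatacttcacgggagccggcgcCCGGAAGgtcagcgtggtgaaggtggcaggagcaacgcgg
Tomm22: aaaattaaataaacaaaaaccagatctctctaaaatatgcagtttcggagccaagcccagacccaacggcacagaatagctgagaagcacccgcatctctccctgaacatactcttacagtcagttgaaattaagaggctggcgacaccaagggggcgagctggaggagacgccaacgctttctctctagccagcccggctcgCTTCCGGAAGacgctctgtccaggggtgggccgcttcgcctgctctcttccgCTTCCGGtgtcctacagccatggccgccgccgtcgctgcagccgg

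Both strands were searched for the ETS-type site, spelled CCGGAAG. The other short motifs were the GC box, spelled GGGCGG, and the CCAAT box of those letters, beside the TATA box, spelled TATAAA, and the E-box, spelled CACGTG. The core of the nuclear respiratory factor NRF1 was searched as GCGC followed, after 1 base of any kind, by TGCGC. The stretch of Tomm22 held 3 ETS-type matches, of which 2 overlap on opposite strands, Timm23 held 2 and Slc25a4 held 1 beside 2 CCAAT and 1 GC box. Slc25a5 held no ETS-type match and 1 GC box. RefSeq stretches were given for 30 of the 36 genes. Among these 13 held an ETS-type match (43.3%), against 9.93% of 27025 genes and 24.2% of the 3364 of them that also passed the 10% filter. The NRF1 core was in 5 (16.7%), against 5.19% and 13.1%, CCAAT in 10 (33.3%), against 41.1% and 42.8%, the GC box in 17 (56.7%), against 38.2% and 68.6%, the E-box in 6 (20%), against 8.09% and 13.1%, and TATAAA in 3 (10%), against 15.7% and 9.57%. The 30 genes were not put through the 10% filter, so the second share of each pair is not like for like. Timm10, Timm29, Timm8a2 and Tomm70a, with an ETS-type match, did not pass it, nor did Timm10, Timm8a1 and Tomm20l, with an E-box. Shares among those that passed were not computed. A match is a run of letters and not a measured binding site.

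Slc25a5 (ENSMUSG00000016319, GRCm38 chromosome X, 36795651 to 36798807, plus strand), an ADP/ATP exchanger, had the highest mean level of the 36 genes. It was found in 21 of 39 uncrushed wells (53.8%, exact 95% interval 37.2 to 69.9), against 13 of 25 on day 2 (52%, 31.3 to 72.2) and then 20 of 24 on day 4 (83.3%, 62.6 to 95.3). Its FPKM per well ran from 0 to 5613 with a median of 167 in uncrushed retina, from 0 to 1991 with a median of 71.5 at day 2, and from 0 to 3684 with a median of 927 at day 4. The ranges overlap. Among the wells that held it the median was 791, 604 and 1201 FPKM. Its mean log2(FPKM + 1) was 6.16 ± 4.07 (SD over 39 wells), 5.46 ± 4.12 (25 wells) and 8.53 ± 3.36 (24 wells), a difference of -0.70 at day 2 and 2.37 at day 4. The day 4 difference was 2.50 and 3.62 within plates 1 and 2 and -4.18 in the 2 wells of plate 3. The day 2 difference was -0.27, -1.65 and -0.68 within the plates. It turned to 0.07 without the wells that held neutrophil or rod markers, and to 0.36 with the plate 1 day 4 wells grouped by their treatment label.

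Slc25a4 (ENSMUSG00000031633, chromosome 8, 46206797 to 46211284, minus strand), the second ADP/ATP exchanger, started low. It was found in 5 of 39 uncrushed wells (12.8%, 4.30 to 27.4), against 9 of 25 on day 2 (36%, 18 to 57.5) and then 14 of 24 on day 4 (58.3%, 36.6 to 77.9). Thinned to 50000 reads per well and counted at 1 read, it was present in 9 (23.1%, 11.1 to 39.3), 12 and 14 wells (58.3%, 36.6 to 77.9), so the thinned intervals of uncrushed and day 4 wells overlap. Its median FPKM was 0, 1.72 and 41.1, with highest wells of 777, 2059 and 1027. The mean was 1.46 ± 2.80, 3.00 ± 3.45 and 4.27 ± 3.62, so the difference was 1.54 at day 2 and 2.82 at day 4. At day 4 it rested on plate 2, where it was 6.28 against 0.81 on plate 1 and -2.02 on plate 3. Without plate 2 it was found in 35.7% of day 4 wells, and day 4 minus day 2 turned from 1.28 to -0.40.

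After crush, each well that held Slc25a4 also held Slc25a5. Slc25a4 was found without Slc25a5 in 2 uncrushed wells and in none at day 2 or day 4, and they were found together in 3, 9 and 14 wells, while Slc25a5 was found alone in 18, 4 and 6. Where both were found, Slc25a5 had the higher FPKM in all 3, in 8 of 9 and in 13 of 14 wells. Tomm22, which is no exchanger, ran the same way. It was found without Slc25a5 in 2 uncrushed, 0 day 2 and 0 day 4 wells, and with it in 7, 2 and 12. Tomm22 had the higher FPKM in 1, 0 and 0 of these shared wells. Slc25a5 was found in more deep wells than any other of these genes, so the pattern is not particular to the exchangers. A link between Slc25a4 and Slc25a5 was not tested.

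Slc25a3 (ENSMUSG00000061904, chromosome 10, 91116574 to 91124059, minus strand), the phosphate carrier, was found in 7 of 39 wells (17.9%, 7.54 to 33.5), then 9 of 25 (36%, 18 to 57.5), then 12 of 24 (50%, 29.1 to 70.9). The median FPKM stood at 0, 0 and 8.44, and its highest wells stood at 427, 228 and 217. The highest single well was thus an uncrushed one, while more day 4 wells were above 0. Its mean was 1.44 ± 2.86, 2.27 ± 2.99 and 3.38 ± 3.22, a difference of 0.83 at day 2 and 1.94 at day 4, with 2.17, 2.14 and -0.99 within the plates at day 4.

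**Figure D3:**
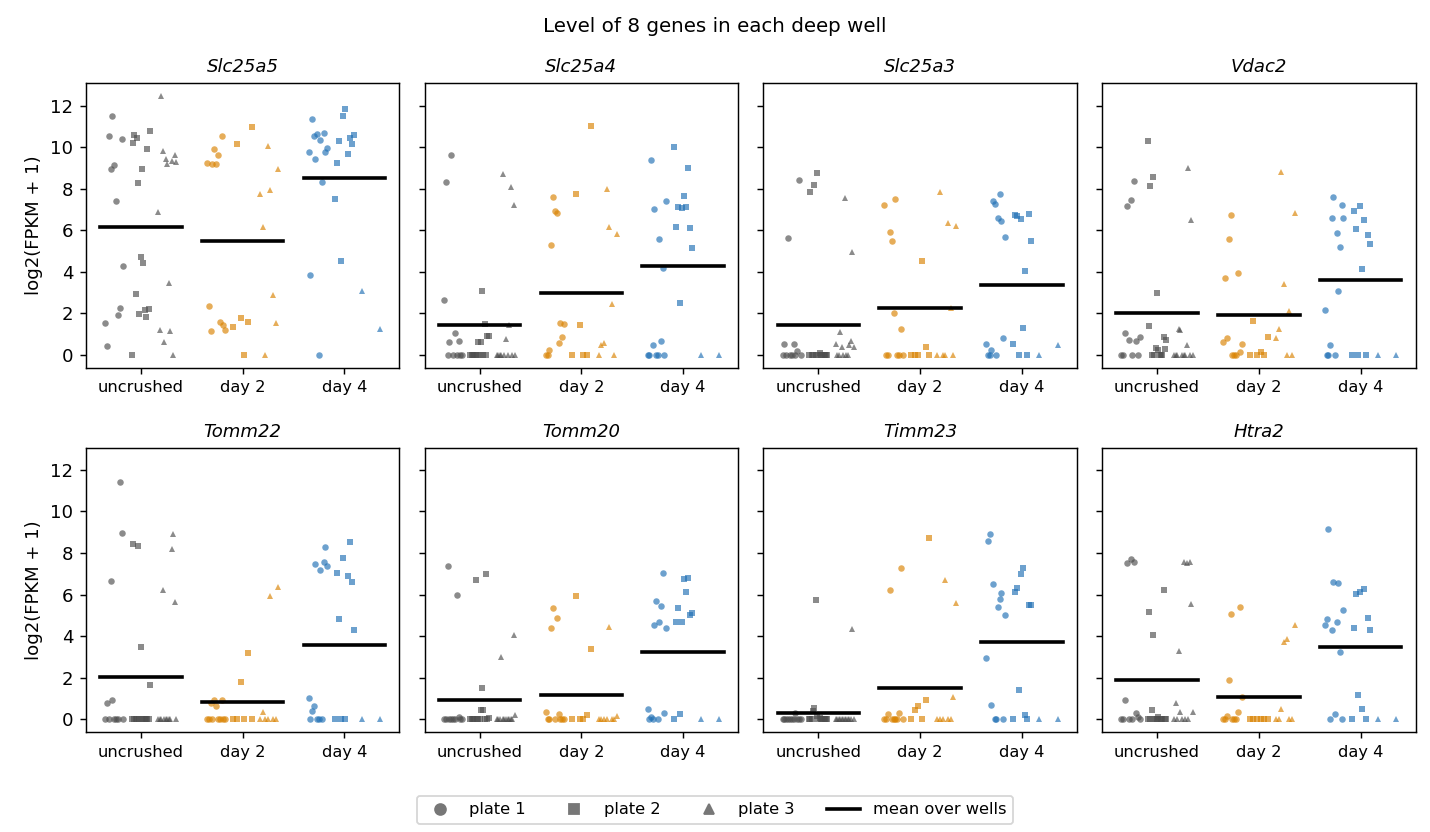
Level of 8 genes in each deep well (y axes, log2(FPKM + 1)) by group (x axes), with symbols for the 3 plates and a black line at the mean over wells. Wells split into those near 0 and those well above it, and the day 4 means lie above the uncrushed means for all 8 genes, as for Slc25a5 at 8.53 against 6.16.

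The porins were each found in the largest share of wells at day 4. Vdac2 (ENSMUSG00000021771, chromosome 14, 21825238 to 21845879, plus strand), which also holds the cell death protein Bak, was found in 8 of 39 wells (20.5%, 9.30 to 36.5), then 7 of 25 (28%, 12.1 to 49.4), then 15 of 24 (62.5%, 40.6 to 81.2). Its median FPKM was 0.256, 0.753 and 25.9 and its highest wells 1253, 451 and 196. So the shares and the highest wells ran in opposite order. Its mean was 2.01 ± 3.27, 1.92 ± 2.60 and 3.61 ± 3.07, a difference of -0.09 at day 2 and 1.60 at day 4, but the log2 ratio of mean FPKM + 1 at day 4 was -0.73.

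Vdac1, a docking site of hexokinase, was found in 5, 6 and 9 wells and differed by 0.75 and 1.68. Vdac3 was found in 1 uncrushed, 5 day 2 and 12 day 4 wells and differed by 1.07 at day 2 and 2.58 at day 4, with 2.65, 2.52 and -0.01 within the plates at day 4. It is named here after its values were seen, and the only uncrushed well that held it was at 797 FPKM, above the highest at day 2 (349.5) and at day 4 (262).

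In the outer membrane translocase, the receptor Tomm22 was the only tested gene below uncrushed retina at day 2. Its intervals in uncrushed and day 2 wells overlap. Tomm70a, which did not reach the 10% filter, differed by -0.24 at day 2. Tomm22 (ENSMUSG00000022427, chromosome 15, 79670861 to 79673400, plus strand), the central receptor that also holds the complex together, was found in 9 of 39 uncrushed wells (23.1%, 11.1 to 39.3), against 2 of 25 on day 2 (8%, 0.984 to 26) and then 12 of 24 on day 4 (50%, 29.1 to 70.9). Both day 2 wells were on plate 3, and 0 of 17 deep wells of plates 1 and 2 held it. The median FPKM stood at 0, 0 and 9.94, with highest wells of 2781, 80.4 and 369. Its mean was 2.04 ± 3.50, 0.84 ± 1.76 and 3.58 ± 3.59. The difference was -1.21 at day 2, with -2.32, -0.63 and -0.65 within the plates, and -1.17 without wells that held neutrophil or rod markers. At day 4 it was 1.54, with 0.71, 3.14 and -2.23 within the plates, and the log2 ratio of mean FPKM + 1 was -0.63. Day 4 minus day 2 was 2.74.

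Tomm20 (ENSMUSG00000093904, chromosome 8, 126930667 to 126945844, minus strand), the receptor for presequences, was found in 5 of 39 (12.8%, 4.30 to 27.4), then 6 of 25 (24%, 9.36 to 45.1), then 14 of 24 wells (58.3%, 36.6 to 77.9). The median FPKM stood at 0, 0 and 23.3 and its highest wells 163, 59.3 and 132. The day 4 wells were thus more often above 0 than the uncrushed wells, but no higher at the top than these. It differed by 0.23 at day 2 and 2.28 at day 4, with 1.50, 3.40 and -0.56 within the plates at day 4.

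Tomm40, the channel itself, was found in 0 of 39 uncrushed wells, which allows a share of up to 7.69%, in 3 of 25 at day 2 and in 10 of 24 at day 4 (41.7%, 22.1 to 63.4). It too is named after its values were seen. It differed by 0.83 at day 2 and 2.19 at day 4, with 2.20, 2.61 and 0.00 within the plates at day 4, and Gm20512, an antisense gene that shares 244 bases with it, was found in 0, 3 and 7 wells. Tomm7 and Tomm6, small subunits that steady the channel, were found before crush in more wells than Tomm20, Tomm22 or Tomm40. Tomm7 was found in 16 of 39 (41%, 25.6 to 57.9), then 11 of 25 (44%, 24.4 to 65.1), then 13 of 24 wells (54.2%, 32.8 to 74.4), and its median FPKM was 1.15, 8.18 and 61.3 with highest wells of 2315, 1534 and 625. Tomm6 was found in 12 (30.8%, 17 to 47.6), 12 (48%, 27.8 to 68.7) and 13 wells (54.2%, 32.8 to 74.4), with a median FPKM of 0, 11.4 and 18.2 and highest wells of 237, 119 and 129. For these genes the intervals of all 3 groups overlap, and their day 4 differences were 0.75 and 1.23. Tomm5, another small subunit, was found in 2, 3 and 8 wells and differed by 1.93 at day 4.

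The receptor Tomm70a, which takes up carrier precursors, was found in 2 of 39, 0 of 25 (a share of up to 12%) and 6 of 24 wells. Tomm34, which despite its name acts as a cytosolic co-chaperone, was found in 5, 5 and 6 wells and differed by 0.50 at day 4. Tomm20l and Tomm40l, relatives of Tomm20 and Tomm40, were found in 2 of 88 wells each. Tomm70a, Tomm20l and Tomm40l did not reach the 10% filter.

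Among inner membrane translocase genes, Timm23 had the largest difference of the 28 at day 4, and it is named after its values were seen. Timm23 (ENSMUSG00000013701, chromosome 14, 32180162 to 32201898, minus strand), the channel for presequence proteins, was found in 2 of 39 uncrushed wells (5.13%, 0.627 to 17.3), against 5 of 25 on day 2 (20%, 6.83 to 40.7) and then 14 of 24 on day 4 (58.3%, 36.6 to 77.9). The 2 uncrushed wells held 19.3 and 51.9 FPKM, the day 2 wells 47.1 to 415 and the day 4 wells 6.64 to 475. It differed by 1.23 at day 2, with 1.25, 1.33 and 1.33 within the plates, and by 3.42 at day 4, with 4.13, 3.47 and -0.33. Its transcript shares at least 95% of 200 or more bases with 6 processed pseudogenes, and only 4.76% of its values under 100 reads were whole. When the gene and these pseudogenes were summed the difference was 1.55 at day 2 and 4.34 at day 4, with the same numbers of wells holding reads, 2, 5 and 14.

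Dnajc19 (ENSMUSG00000027679, chromosome 3, 34056020 to 34081321, minus strand), a J-domain protein that drives the motor chaperone, was found in 7 of 39 (17.9%, 7.54 to 33.5), then 8 of 25 (32%, 14.9 to 53.5), then 12 of 24 wells (50%, 29.1 to 70.9). Its median FPKM was 0, 0.149 and 6.28 and its highest wells 314, 218 and 134. It differed by 0.66 and 1.29, but at day 4 the log2 ratio of mean FPKM + 1 was -0.07. Pam16, which restrains that J-domain protein, was found in 3, 3 and 6 wells and differed by 0.35 at day 4, the smallest difference of the 28.

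Timm17a and Timm17b, alternative partners of Timm23 in the channel, were found in 2, 5 and 9 wells and in 4, 4 and 7 wells, and differed by 1.32 and 0.92 at day 4. At least 1 of this pair was found in 6, 8 and 12 wells and both in 0, 1 and 4. Timm50, the receptor of the complex, was found in 0, 3 and 7 wells and differed by 1.68 at day 4. Timm21 was found in 1, 2 and 7 wells with a day 4 difference of 1.73, and of 7.01 within plate 3, where 1 of the 2 wells held the transcript. Timm44, which tethers the motor, was found in 2, 3 and 4 wells. Timm22, the channel that inserts carriers, was found in 2, 1 and 4 wells and its partner Timm29 in 0, 3 and 1, and neither reached the filter.

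The small chaperones differed among themselves, and 2 of the 4 that were tested were past the mark at day 4. Timm13 (ENSMUSG00000020219, chromosome 10, 80899450 to 80900969, minus strand), the partner of Timm8 proteins, was found in 9 of 39 (23.1%, 11.1 to 39.3), then 11 of 25 (44%, 24.4 to 65.1), then 9 of 24 wells (37.5%, 18.8 to 59.4). Its median FPKM was 0, 1.12 and 0.150, with highest wells of 573, 800.5 and 230. It was thus highest at day 2, by 1.28 over uncrushed retina with -0.16, 2.30 and 2.19 within the plates, and differed by 0.54 at day 4. Timm8b (ENSMUSG00000039016, chromosome 9, 50603910 to 50605320, plus strand) was found in 4 (10.3%, 2.87 to 24.2), 5 (20%, 6.83 to 40.7) and 7 wells (29.2%, 12.6 to 51.1). Its highest wells reached 4867, 867 and 6636 FPKM while its median was 0 in every group, so single wells carry most of its level. Timm9, which with Timm10 carries hydrophobic proteins between the membranes, was found in 0, 3 and 7 wells and Timm10 in 1, 1 and 4, with both together in 2 wells, both at day 4. Timm10b was found in 5, 6 and 9 wells and Timm8a1 in 0, 3 and 4.

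The prohibitins and Htra2 differed from each other at day 2. Htra2 (ENSMUSG00000068329, chromosome 6, 83051266 to 83055273, minus strand) was found in 10 of 39 (25.6%, 13 to 42.1), then 6 of 25 (24%, 9.36 to 45.1), then 15 of 24 wells (62.5%, 40.6 to 81.2), with a median FPKM of 0, 0 and 19.3 and highest wells of 207, 40.7 and 571. Its highest day 2 well thus stood below the highest of the other groups. Its exons overlap those of Aup1 and Loxl3 on the other strand, and Loxl3 was found in 7, 0 and 12 wells and Aup1 in 7, 8 and 10. Htra2 differed by -0.81 at day 2, with -0.93, -1.07 and -0.96 within the plates, but by 0.18 with the plate 1 day 4 wells grouped by their treatment label and by -0.54 without wells with neutrophil or rod markers. It differed by 1.59 at day 4 and by 2.40 from day 2 to day 4. Phb2 (ENSMUSG00000004264, chromosome 6, 124712336 to 124716950, plus strand) was found in 7 of 39 (17.9%, 7.54 to 33.5), then 8 of 25 (32%, 14.9 to 53.5), then 9 of 24 wells (37.5%, 18.8 to 59.4), with a median FPKM of 0, 0.412 and 0.209 and highest wells of 557, 326 and 111. It differed by 1.16 at day 2, with 1.18, 1.86 and 1.05 within the plates, and by 0.93 at day 4, where the log2 ratio of mean FPKM + 1 was -0.63. Its partner Phb was found in 3, 4 and 10 wells and differed by 0.35 at day 2 and 1.98 at day 4.

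The higher shares did not come with higher levels in the wells that held a gene. Among the 19 of these genes found in at least 3 wells of both groups compared, the median FPKM of the wells with the gene was lower at day 4 than in uncrushed retina for 16 (84.2%), with a median log2 ratio of -1.49, and the exceptions were Phb2, Vdac1 and Slc25a5. The same held for 84.4% of 4278 genes of the whole table, with a median of -1.09, so the direction is that of the table. At day 2, 15 of 18 were lower (83.3%, median -1.43), against 70.3% of 3849 genes (median -0.49), and from day 2 to day 4, 17 of 26 were lower (65.4%, median -0.58), against 75.4% of 4861 genes (median -0.58). Summed over the 36 genes, a deep well held a median of 2913 RPM in uncrushed retina (range 11.1 to 9240), 3003 at day 2 (17.9 to 10861) and 5282 at day 4 (73.1 to 10558). The highest wells of the 3 groups thus reached similar sums, and the highest day 4 well is 1 of the 2 poor wells of plate 3, where Timm8b and Timm21 alone were found.

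Each of 3 sets, the carriers, the porins and core subunits of the outer membrane translocase, was found whole in the largest share of wells at day 4. Vdac3 and Tomm40 reach the 10% filter only through the day 4 wells. No uncrushed deep well held Tomm40, so the outer membrane set could not be whole there. Of all genes tested, 94.7% had a larger share at day 4. Shares of other sets of 3 genes were not computed, so these counts are a description only. All 3 carriers were found in 1 of 39 uncrushed wells (2.56%, 0.0649 to 13.5), against 6 of 25 on day 2 (24%, 9.36 to 45.1) and then 10 of 24 on day 4 (41.7%, 22.1 to 63.4). All 3 porins were found in 0, 1 and 7 wells, and Tomm20, Tomm22 and Tomm40 together in 0, 0 and 8. A count of 0 in 39 wells allows up to 7.69%. None of the 3 carriers was found in 15, 11 and 4 wells, and none of the 3 porins in 28, 13 and 7.

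**Figure D4:**
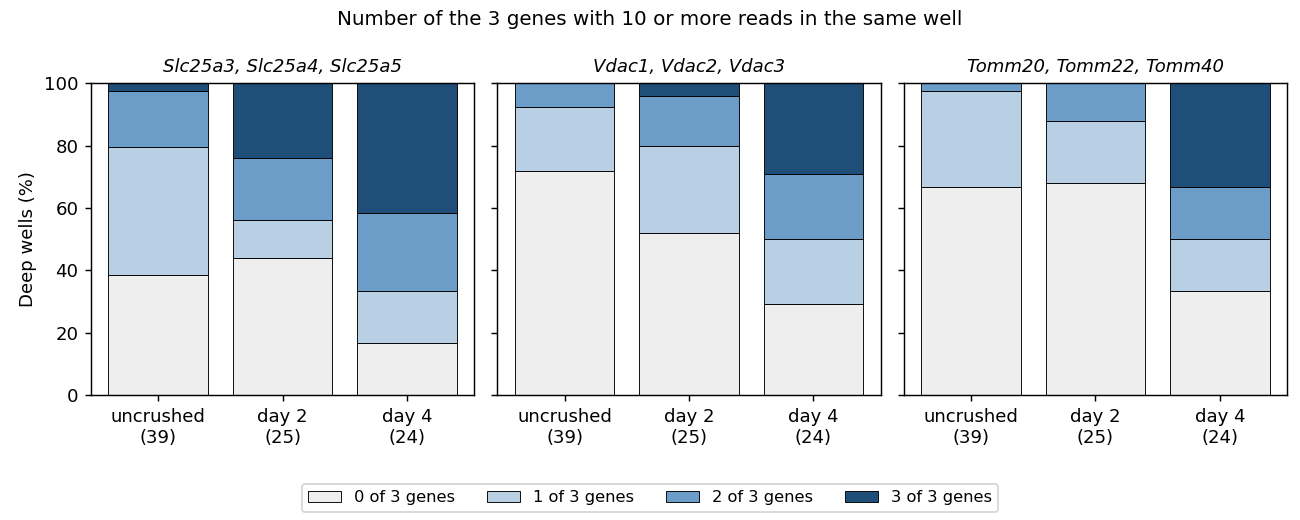
Percent of deep wells (y axis) in which 0, 1, 2 or all 3 genes of a set had 10 or more reads, for 39 uncrushed, 25 day 2 and 24 day 4 wells (x axis), for the carriers, the porins and 3 core subunits of the outer membrane translocase. Wells with all 3 outer membrane subunits appear only at day 4, at 33.3%. Tomm40 was found in no uncrushed well, and shares of other sets of 3 genes were not computed.

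The number of these genes found in a well followed the number of all genes found in it. Over deep wells Pearson's r between them was 0.93 in 39 uncrushed, 0.92 in 25 day 2 and 0.96 in 24 day 4 wells, and Spearman's rho was 0.87, 0.91 and 0.92, a description in which both counts share the well's depth and capture. Per 1000 genes found, the median was 3.12, 3.75 and 4.48. At least 3000 genes were found in 1 uncrushed, 6 day 2 and 10 day 4 wells, which held 19, 10 to 21 and 12 to 28 of the 36 genes. The other wells held 0 to 10, 0 to 9 and 0 to 11. All 8 day 4 wells with more than 20 of these genes, and the 1 at day 2, lie among the wells with at least 3000 genes. After thinning to 50000 reads and counting a single read, the median number of these genes per well was 4, 6 and 10. Counted the same way, the median number of all genes per well also rose, from 1279 to 1527 and 2249.5. How far the number of genes captured per well accounts for the differences was not tested.

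**Figure D5:**
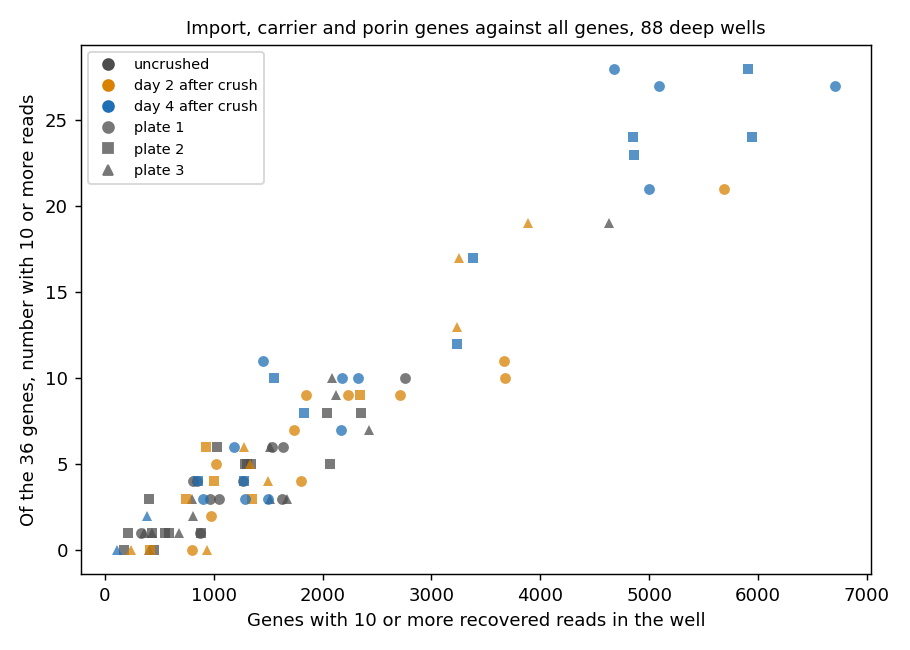
Number of the 36 genes with 10 or more reads (y axis) against the number of all genes with 10 or more reads (x axis) in each of 88 deep wells, coloured by group and marked by plate. The wells form a single band, and those with more than 20 of the 36 genes are 8 from day 4 and 1 from day 2.

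Reads can be shared with other loci for 22 of the 36 genes. Exons of 17 overlap another gene, among them Tomm6 with Tomm6os and Gm21981, Htra2 with Aup1 and Loxl3, and Tomm40 with Gm20512, and the sources used here do not state that counting used strand. For 7 genes a processed pseudogene elsewhere matches at least 95% over 200 or more bases, namely Slc25a5, Timm23, Tomm20, Phb, Dnajc19, Timm17a and Timm8a1. Summed with these copies, day 4 minus uncrushed was 2.36 for Slc25a5, 2.57 for Tomm20 and 2.10 for Phb, against 2.37, 2.28 and 1.98 alone. Phb also matches the protein-coding gene Fyb at 100% over 339 bases. Fyb lies elsewhere, was found in 12 uncrushed, 10 day 2 and 13 day 4 wells, and was not part of the sum. Of the values under 100 reads, 8.33% were whole for Tomm6 against 58.1% for Slc25a5 and 80% for Tomm7.

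Against the 21.4% (day 2) and 43.7% (day 4) of all genes past the mark above uncrushed retina, other mitochondrial genes also had higher counts at day 4 than at day 2. Of 23 other import and assembly genes 15 were tested, of which 2 were past the mark above uncrushed retina at day 2 and 8 at day 4, with Romo1, a small inner membrane protein, at 2.55 and 4.41, and the matrix chaperones Hspd1 and Hspe1 at 3.11 and 2.93 at day 4. Of 9 tested among 38 other carriers and channels, 3 and 6 were, with the uncoupling protein relative Ucp2 at 1.41 and 2.93 and the pyruvate carrier subunit Mpc1 at 1.77 and 2.38. Of 6 tested among 16 cristae and protease genes 0 and 4 were, with Stoml2 at 1.83 at day 4. Of 14 tested among 17 genes of matrix enzymes, the respiratory chain and mitochondrial mass 5 and 11 were, with the outer membrane protein Tspo at 3.15 and 4.03 and cytochrome c1 (Cyc1) at 3.93 at day 4. No tested gene of the 4 lists was past the mark below in any of the 3 comparisons, and the day 4 medians of the lists were 1.01, 1.44, 1.27 and 1.61 against 0.86 over all genes. The genes named here had large differences. The lowest day 4 differences in the lists were 0.10 for Samm50, -0.34 for Micu2, 0.36 for Yme1l1 and 0.35 for Polg. Values within plates were not computed for the lists.

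Outside the 36 genes, those most like their mean level over 88 deep wells, after each group mean was subtracted, were Tacc1, Rsl1d1, Srrd, Snx6 and Pros1, with Pearson's r of 0.71, 0.69, 0.68, 0.68 and 0.66. The median over 4201 protein-coding genes was 0.34, and the number of genes with any read in the well had 0.87, above each single gene. These are descriptions over wells that share plate, depth and capture.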

How the data were processed

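RNA of single retinal microglia, sorted by EGFP fluorescence into wells, was measured by sequencing of Nextera XT libraries, per the labels' protocols. The submitters' processing notes name Trim Galore 0.4.4, Trimmomatic 0.36, cutadapt 1.16, STAR 2.7.2b, featureCounts 1.6.1 and the genome GRCm38.p6 (mm10). The authors deposited 1 table of FPKM per gene and well with gene lengths, and whether reads were counted by strand is not given in the sources used here. From the deposited FPKM, length gave length-free values, which sum to 1000000 in each well. The commonest value above 0 in a well was taken as what 1 read is worth. Of the recovered values under 100 reads, 36.4% were whole within 0.01, so reads can be split between genes and the recovered reads serve only for depth, for calling a gene found and for thinning, not for a count model. Shared reads also make the found calls of genes with copies uncertain.

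Wells with at least 50000 recovered reads were used (88 of 144), and a gene with at least 10 reads was called found. Shares carry exact Clopper-Pearson 95% intervals, and a share of 0 is limited by 3 counts of the total. Levels were compared as means of log2(FPKM + 1), a scale that understates differences of low genes, for genes found in at least 10% of deep wells. Since the labels name no animal, each group is 1 sample, no p-value was computed, and SDs are over wells. Thinning drew 50000 reads per well at random (seed 20). Transcript copies were searched with BLAST 2.17.0 at 95% identity over 200 bases in GENCODE transcripts, and start regions came from RefSeq (GRCm38.p6). Computation used scipy 1.17.1, pandas 2.3.3, matplotlib 3.10.9 and numpy 2.4.6 under Python 3.11.15, and the scripts were tested on simulated data.

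The 36 genes and the other gene and marker lists were chosen with earlier results of these data known. Genes given in full are the 12 with the highest mean level and, per comparison, the 4 with the largest difference among those found in at least 25% of all deep wells. Alternatives were other pseudocounts, filters, scalings, wells, plates, thinning and grouping by treatment tag, and, chosen after seeing the data, leaving out the 2 deep day 4 wells of plate 3 and summing a gene with its pseudogene copies.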

Additional observations from a re-analysis of the deposited data

How the results depend on the processing

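No paired analysis was possible because the labels give wells and not animals, and no test was made. The numbers of the 28 genes past the 2-fold mark depended on the processing. By construction, a larger pseudocount compresses and a smaller one stretches the log scale at low values. Centring subtracts the median of all genes, and the 25% filter only tests fewer genes. The causes of the other changes were not tested, and the share over all genes was not recomputed under the alternatives. At day 2 against uncrushed retina, 5 were above and 1 below. The number above was 0 with a pseudocount of 10, 14 with 0.1, 3 of the 12 that are found in 25% of wells, 1 after centring on all genes, 8 by ratio of mean FPKM, 9 with plate 1 day 4 wells grouped by treatment tag and 11 without wells with neutrophil or rod markers. The number below was 0 with a pseudocount of 10, 2 with 0.1, 3 over all wells, 3 centred, 5 by ratio and 0 by treatment tag. At day 4 the 20 above became 5 with a pseudocount of 10, 9 of those 12, 10 over all wells, 9 centred, 11 by ratio and 13 with plates weighted equally, and the 0 below became 3 by ratio. Between the days the 13 above became 4 with a pseudocount of 10, 7 of those 12, 5 over all wells, 8 centred, 8 with plates weighted equally, 8 without plate 2 and 8 by treatment tag. The 0 below became 1 centred, 3 by ratio, 2 with plates weighted equally, 1 without plate 1 and 1 without plate 2.

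By ratio of mean FPKM the day 4 difference from uncrushed retina turned to -0.73 for Vdac2, -0.63 for Tomm22 and -0.074 for Dnajc19. Day 4 minus day 2 of Slc25a4 turned to -0.55 over all wells and -0.40 without plate 2. Of 542 values of named genes under alternatives, 50 had the other sign, and only these 5 belong to differences past the mark as reported. Among the others, the ratio gave -0.63 for Phb2 at day 4 and -0.54 for Tomm7, -1.70 for Timm8b and -0.72 for Tomm20 at day 2, and grouping by treatment tag gave 0.36 for Slc25a5 and 0.18 for Htra2 at day 2. The median difference of the genes tested kept its sign under each alternative over several plates, from 0.16 to 1.001 at day 2, 0.57 to 2.41 at day 4 and 0.36 to 1.46 between the days, but within single plates it was -0.05 on plate 2 at day 2, and -0.86 at day 4 and -1.51 between the days on plate 3.

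Thinning to 50000 reads with the same 10-read rule lowered shares by construction. Listed next are the 15 thinned shares of genes given in full that fell outside the exact interval of the share as reported. Another 24 stayed inside theirs. For uncrushed retina, Tomm6 was at 0%. At day 2 the shares were 20% for Tomm7, 4% for Tomm6, 16% for Timm13, 0% for Tomm22, 0% for Htra2, 4% for Timm8b and 8% for Tomm20. At day 4 they were 20.8% for Tomm7, 4.17% for Tomm6, 4.17% for Timm13, 16.7% for Htra2, 8.33% for Dnajc19, 4.17% for Timm8b and 16.7% for Tomm20. Without plate 2, Slc25a4 was found in 35.7% of day 4 wells, and without plate 3 Tomm22 in 0% of day 2 wells. A share of 0 in 25 wells allows up to 12%, so these data cannot show the absence of a transcript.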
